A study of Mus musculus with 884 samples.

Results

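Cells at the very start of S phase were taken from a single-cell replication-timing series of differentiating mouse embryonic stem cells. They were chosen by measured values: they are the cells sorted through any S-phase gate whose deposited replication score, the share of their called autosomal bins that is replicated, lies between 0.01 and 0.10. The rule found 57 of 884 cells. The score is made from the same calls that are described here, so the small number of replicated bins per cell was set by the choice of cells and is not a result.

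In scRepli-seq, the DNA of 1 sorted nucleus is amplified whole and sequenced, and a stretch that has been copied carries more reads than one that has not. In mammalian cells, DNA is copied in an order that is broadly reproducible from one cell division to the next. Stretches that are rich in genes and open in their chromatin tend to be copied early, and gene-poor heterochromatin late. Neighbouring origins fire together, so early copying appears as domains that span many kilobases.

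The deposited calls cover 30890 autosomal bins of 80 kb on chromosomes 1 to 19 of mouse build mm9, each called replicated, not replicated or without data. The CBMS1 cells are a female CBA/MsM hybrid embryonic stem cell line. EpiSC are female epiblast stem cells, labelled C57BL6, kept in activin and FGF and labelled p5. CBMS1 cells were kept in 2i/LIF (d0), turned into epiblast-like cells over 2 days (d2), then grown as aggregates towards neurectoderm and taken at d3, d4, d5, d6 and d7.

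The 57 cells comprise 9 EpiSC, 17 d2 cells, 4 d3 cells, 5 d4 cells, 3 d5 cells, 8 d6 cells, 10 d7 cells and 1 d0 cell. Each state is 1 culture as far as the labels say, so cells are not replicates, no test between states was possible, and every interval in parentheses after a share is a 95% Clopper-Pearson interval (exact, counting error alone). Sequencing depth per cell is unknown from the files used. Of the 57 cells, 29 came from the 25perS gate, 12 from 35perS, 11 from 45perS, 2 from 55perS and 3 from 65perS, so a low score did not always go with the earliest gate. The cells had a median score of 4.22% (range 1.03 to 9.87%) and a median of 29577 called bins (range 4355 to 29826). A d3 cell with 4355 called bins and a d2 cell with 16184 stood far below the rest, and the sparse d3 cell had the highest score of the 57. No cell came from the earlier series whose files the submitters re-used. Among the 57, 35 scored below 5%, and exactly those 35 are marked in the deposited column named for the interquartile-range filter. The file's header gives the rule of 5% or less to the replication-score column, which marked 14 of the 57, 4 of them above 5%, so the names of these 2 columns may be exchanged.

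The name "start of S phase" was first checked against a measure that the choice did not use: where the replicated bins of each cell lie in the replication order of its own state. That order was the percent of mid-S cells (score 40 to 70%) of the state in which each bin was replicated. Agreement was the area under the curve (AUC), which is 1 when every replicated bin ranks earlier than every other bin and 0.5 when there is no relation. An AUC of 0.8 or more is called following the mid-S profile.

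Only 21 of the 57 cells, 36.8% (24.4 to 50.7%), followed the mid-S profile. The median AUC of the 57 was 0.753, with a range of 0.489 to 0.888. Of the 23 G1-gated cells that fell in the same score window, 4 followed the profile (17.4%, 4.95 to 38.8%), and 40 of the 44 S-phase cells at scores of 10 to 20% did (90.9%, 78.3 to 97.5%). Whether some of the 23 had in fact begun S phase cannot be told from these files. By this cut the label therefore holds for some of the cells only, and the results below are given for all 57 and for the 21. The cut is not a clean divide. A d6 cell with 22882 called bins fell below it at 0.793. Yet 93.1% of its replicated bins were replicated in at least 80% of mid-S d6 cells, against 52.7% of its called bins. A d2 cell with 29707 called bins passed at 0.805 with 83.8%, against 38.7% of its called bins.

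The split ran largely by state. All 9 EpiSC followed the profile, with a lowest AUC of 0.815, a median of 0.865 and a highest of 0.888. Their lowest value was above that of every d7 cell. At d4 the 5 AUC values were 0.513, 0.832, 0.827, 0.809 and 0.843, so 1 cell stood apart and 4 followed. At d3 they were 0.844, 0.842, 0.804 and 0.635, the last being the sparse cell. At d5 they were 0.667, 0.830 and 0.838.

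The other states looked different. At d2, 2 of 17 cells followed, with a lowest AUC of 0.505, a median of 0.685 and a highest of 0.826. At d6, 1 of 8 cells followed (0.522, 0.759 and 0.830 as lowest, median and highest). At d7 none of 10 did (0.489, 0.707 and 0.785), where a count of 0 allows a share of up to 30%. The single d0 cell had an AUC of 0.562 at a score of 1.03%. The gates differed too: 8 of the 9 EpiSC and all 5 d4 cells came from 25perS, against 6 of the 17 d2 cells and 1 of the 8 d6 cells. The part of the gate in these differences was not tested.

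**Figure D1:**
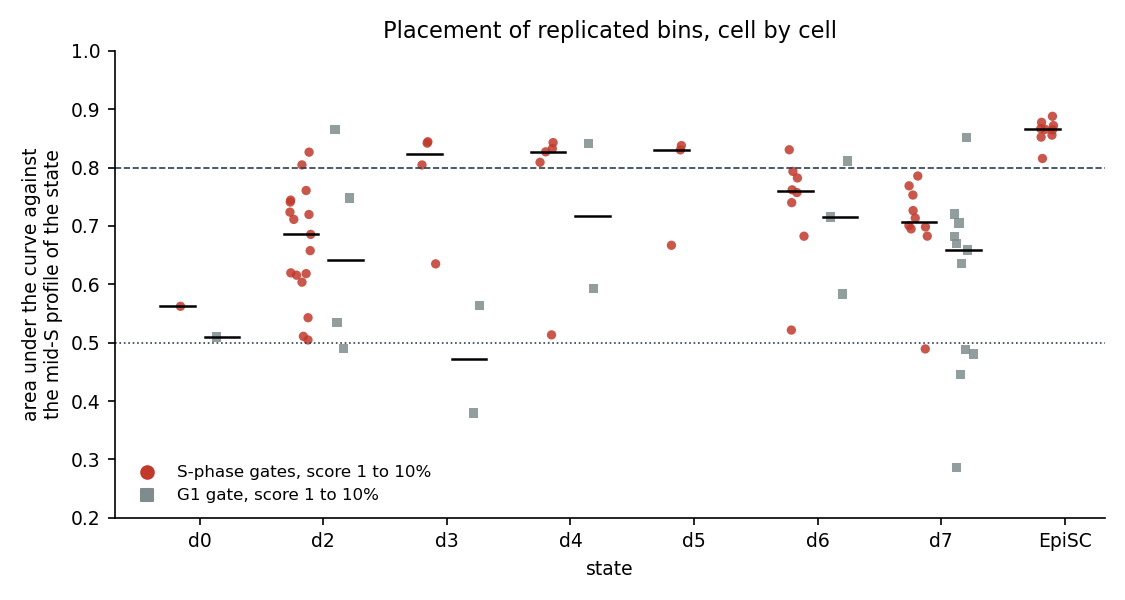
Each point is 1 cell with a score of 1 to 10%: S-phase-gated cells in red at the left of each state, G1-gated cells in grey at the right, with the median as a bar. The y axis is the area under the curve against the mid-S profile of the state, with 0.8 dashed and 0.5 dotted. The 9 EpiSC lie between 0.815 and 0.888, and no d7 S-phase cell reaches 0.8.

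The share of followers was higher at higher scores: 5 of 27 cells at 1 to 4%, 7 of 16 at 4 to 7% and 9 of 14 at 7 to 10%. Just inside the lower limit lay cells of 1.03%, 1.07% and 1.31%, with AUC values of 0.562, 0.667 and 0.762. Just outside it lay cells of 0.954%, 0.793% and 0.748%, with AUC values of 0.613, 0.819 and 0.783. Just inside the upper limit lay cells of 9.87%, 9.49% and 9.39% (0.635, 0.843 and 0.830), and just outside it cells of 10.1%, 10.8% and 11.1% (0.767, 0.825 and 0.905). Neither limit separated cells that followed from cells that did not.

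Where the first bins lie is plainest in EpiSC. A median of 98.3% of an EpiSC cell's replicated bins (range 92.6 to 99.6%) lay in bins that were early in EpiSC, meaning replicated in at least 80% of mid-S EpiSC. Late bins, replicated in at most 20% of the mid-S cells of the state, held a median of 0.132% of them. Over all 57 cells the early share had a median of 78.96% (range 30.5 to 99.6%), against early shares of 19.9 to 52.7% (median 40.8%) among all called bins of the same cells. The corresponding medians were 73.9% in d7 cells and 64.7% in d2 cells, and late bins held 10.5% and 14.5% there. Among all called bins of the 17 d2 cells, early bins made up 19.9 to 42.5% and late bins 28.3 to 50.0%. In a d7 cell with 29544 called bins they made up 41.4% and 27.9%.

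The same held bin by bin. Bins replicated in 95 to 100% of the mid-S cells of all states were replicated in 18.6% of the EpiSC on average, and bins in the 0 to 20% class in 0.0625%. Over all 57 cells these means were 12.6% and 1.49%, and in the 23 G1-gated cells of the same score window 6.98% and 2.48%. The 21 followers, whose AUC was computed from the same kind of profile and which were therefore chosen to rise along it, stood at 21.5% and 0.625%. In EpiSC the 90 to 95% class reached 6.00% and the 80 to 90% class 2.78%. The first bins were thus drawn largely from the uppermost class of the mid-S order.

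**Figure D2:**
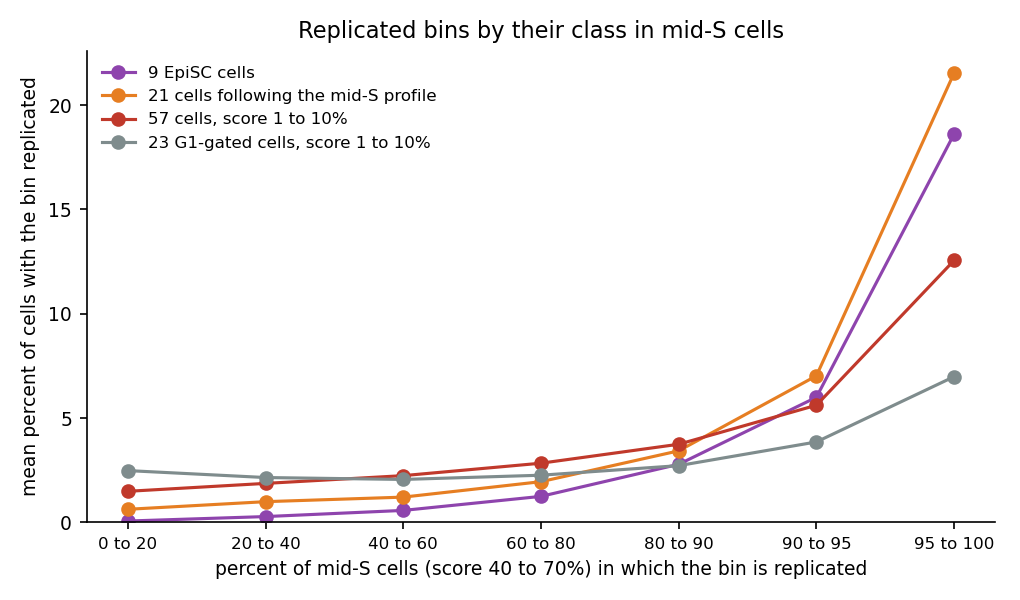
The x axis groups the bins by the percent of the mid-S cells of all states in which they were replicated, and the y axis is the mean percent of cells in which such bins were replicated. The EpiSC line (9 cells) goes from 0.0625% in the lowest class to 18.6% in the highest, and the line of the 23 G1-gated cells from 2.48% to 6.98%.

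How often the same bins recur was measured with a bin counted as recurrent when it was replicated in at least 30% of the cells that had a call there, among bins called in at least 50% of the cells. Across the 57 cells, 516 of 29747 bins (1.73%) were recurrent. Only 7 bins reached 50% and none reached 80%. The most frequent bin, chr11:74640001-74720000, was replicated in 32 of 55 cells (58.2%, 44.1 to 71.3%), against 11 of 23 G1-gated cells of the same score window (47.8%, 26.8 to 69.4%). In all, 11972 bins (40.2%) were replicated in none of the 57. The recurrent bins took up 13.1% of all replicated calls.

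The same count was made among followers and within states. Among the 21 followers, 1950 of 29817 bins (6.54%) were recurrent, 649 reached 50% and 25 reached 80%. Among the 9 EpiSC, 2084 of 29840 bins (6.98%) were recurrent, and these held 60.9% of the replicated calls of those cells. The number of recurrent bins was 1204 at d2 (4.05%), 590 at d6 (2%) and 1387 at d7 (4.71%). In the 23 G1-gated cells it was 281 (0.947%), and in the 44 S-phase cells at 10 to 20% it was 5381 (18.1%). Sets of fewer cells reach 30% with fewer cells, and sets with higher scores can reach it in more bins. The mean percent replicated over bins was 14.9% at 10 to 20%, 5.10% in EpiSC and 3.50% in the G1-gated cells. It was 3.22% at d6 and 2.59% in the cells at 1 to 4%. These counts are therefore not on 1 scale. By score, 142 bins (0.478%) recurred at 1 to 4%, and they formed 3 stretches of at least 3 adjacent bins. Of those 142, 106 were also recurrent in the G1-gated cells, which is 74.6% of the 142 and 37.7% of the 281.

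**Figure D3:**
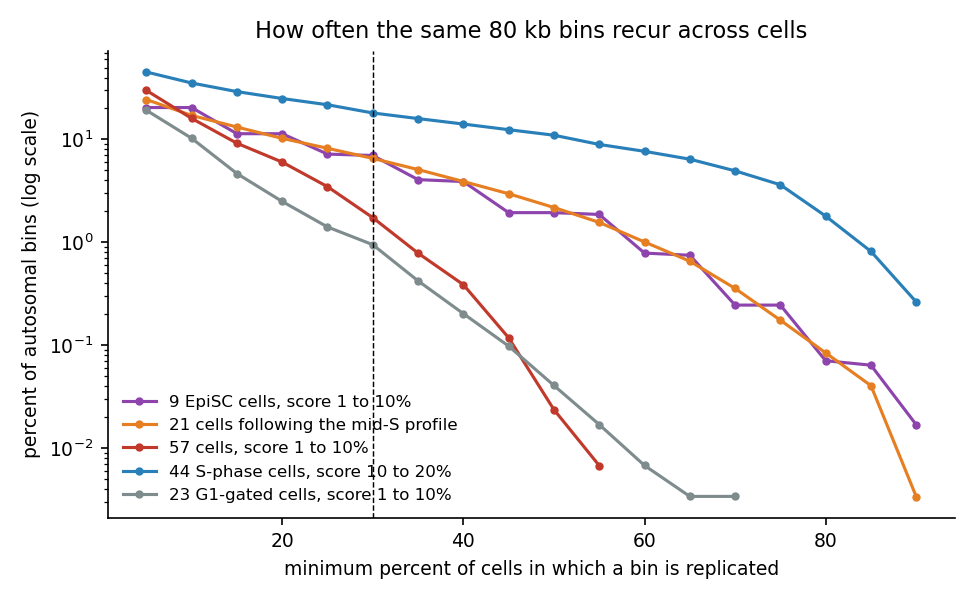
The x axis is the minimum percent of cells in which a bin is replicated, and the y axis the percent of autosomal bins that reach it, on a log scale. At the dashed line of 30% the values are 6.98% for 9 EpiSC, 6.54% for 21 followers, 1.73% for all 57 cells, 18.1% for 44 cells at 10 to 20% and 0.947% for 23 G1-gated cells.

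The 516 recurrent bins were read again in cells that had no part in choosing them. In the 44 S-phase cells at 10 to 20% they were replicated in 74.9% of cells on average, against 14.9% for all bins. In the mid-S cells the mean was 95.9% against 55.5%, and 504 of the 516 bins were early there, as were 38.2% of all bins. In the 23 G1-gated cells of the same score window it was 23.1% against 3.50%. Of the 516, 161 were recurrent in those G1-gated cells too, which is 31.2% of the 516 and 57.3% of the 281.

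Adjacent recurrent bins formed 61 regions of at least 240 kb, with a median of 240 kb and a longest of 1120 kb, on 17 chromosomes. All 61 had a mean of at least 80% in mid-S cells. The regions were defined by their frequency in these 57 cells, so a fall around them in those cells was set by the choice. At their centre bin 38.6% of the 57 cells were replicated on average, against 11.0% at 2000 kb to one side and 9.58% at 2000 kb to the other. Cells outside the choice also stood higher at the centre than at 2000 kb to either side. At those 3 places the S-phase cells of 10 to 20% stood at 79.2%, 33.9% and 32.4%, and the G1-gated cells at 22.3%, 8.77% and 5.97%.

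The regions with the highest mean frequency are named next, and a cell counts as having copied a region when more than 50% of its called bins there were replicated. No gene names are attached, because no annotation of build mm9 was at hand. The highest was chr15:79360001-79680000, copied in 23 of 54 cells (42.6%, 29.2 to 56.8%). It was copied in 9 of 10 d7 cells, 5 of 8 d6 cells, 4 of 9 EpiSC and 0 of 15 d2 cells, and in 8 of 23 G1-gated cells. The next, chr5:115680001-115920000, ran the other way among the days, with 10 of 16 d2 cells, 2 of 10 d7 cells and 1 of 8 d6 cells among its 23 of 55.

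Followers were chosen for early placement and had more replicated bins than the G1-gated cells (a mean over bins of 6.27% against 3.50%), so a higher count in them is no test. The region chr15:101920001-102400000 was copied in 17 of 21 followers, against 5 of 23 G1-gated cells. For chr11:74640001-74880000 the counts were 14 of 21 followers and 2 of 23 G1-gated cells. The counts were 12 of 20 and 4 of 22 for chr10:80480001-80800000, and 12 of 21 and 3 of 23 for chr4:140640001-141120000. The region chr8:86400001-86640000 was copied in 22 of the 55 S-phase cells with a call (40.0%, 27.02 to 54.1%) and in 12 of 23 G1-gated cells, and chr9:64880001-65120000 in 22 of 55 and 10 of 23.

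The remaining 4 of the 12 were chr4:154960001-155360000 (21 of 55), chr17:35440001-35680000 (20 of 53), chr13:55520001-55760000 (25 of 56) and chr11:120080001-120640000 (22 of 55). All 12 were copied in 92.0 to 98.6% of the mid-S cells with a call. At scores of 1 to 4% the 3 highest regions were chr4:155120001-155360000, chr8:73200001-73440000 and chr15:79440001-79680000. The G1-gated cells copied these in 9 of 23, 13 of 23 and 9 of 22 cells.

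The counts also ran with the G1 control used. According to the deposited sample sheet, the reads of each cell were set against a merged profile of a few G1 cells, and the 57 cells used 8 such controls. Each state had its own control, except that 9 of the 10 d7 cells used the d6 control. State and control therefore cannot be told apart in most of the 57 cells. None of the 23 G1-gated cells of the same score window had been merged into a control, and 21 used a control that also served some of the 57. The 3 G1-gated cells with the d2 control are d2 cells, and the 10 with the d6 control are 3 d6 and 7 d7 cells, so here too control and state run together.

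The recurrent bins of d2 were replicated in 44.1% of the 3 G1-gated cells that used the d2 control. The d2 cells themselves, in which these bins were chosen, stood at 45.9%. In the 10 G1-gated cells with the d6 control and the 10 with other controls the d2 bins stood at 5.56% and 6.22%. The recurrent bins of d6 were replicated in 37.1% of the 10 G1-gated cells with the d6 control, against 5.54% with the d2 control and 10.1% with others. For the bins of d7 the values were 28.9%, 6.96% and 10.3% in the same order. The G1-gated cells thus carried the bins of the state with which they shared control and day, with d6 and d7 as 1 set.

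Within 1 day the controls could be set apart in a few cells. Among G1-gated d7 cells of the window, 7 used the d6 control and 4 used other controls. The recurrent bins of d7 were replicated in 30.8% of the 7 and 1.71% of the 4, where all bins stood at 3.01% and 2.53%. The recurrent bins of EpiSC stood at 10.6% in the 7 and 2.04% in the 4, so the 4 held fewer early bins of other lists too. Among d2 S-phase cells at 10 to 20%, the recurrent bins of d2 were replicated in 66.6% of 8 cells with the d2 control and 40.9% of 3 with another, where all bins stood at 14.3% and 15.7%. In mid-S d2 cells the values were 91.9% of 12 and 79.8% of 23, where all bins stood at 55.0% and 51.0%. The day was the same within each of these comparisons and the control differed. Whether the cells of one control also shared a harvest or run cannot be told from the labels.

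Over all 23 G1-gated cells, the recurrent bins of EpiSC differed less between the groups of controls than those of d2, d6 and d7. They stood at 10.9%, 10.2% and 9.16% in the G1-gated cells with the d2 control, the d6 control and the others, where all bins stood at 5.24%, 2.79% and 3.68%. The group of others pools several controls and is not uniform. The EpiSC bins stood at 22.8% in its 1 d2 cell and 2.04% in its 4 d7 cells. No G1-gated cell of the score window used the EpiSC control, so the same comparison could not be made for it.

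**Figure D4:**
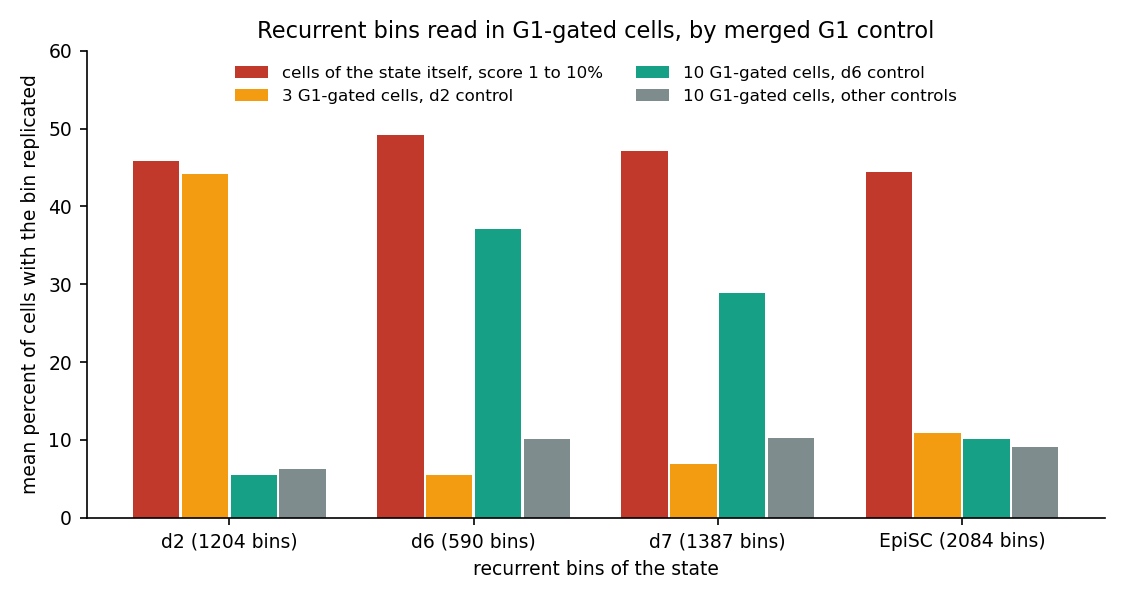
Bars give the mean percent of cells in which the recurrent bins of a state were replicated, in the cells of the state itself (red) and in G1-gated cells of the same score window by merged G1 control. The bins were chosen in the cells of the red bars, so the height of those bars is set by the choice. The d2 bins stand at 45.9% in d2 cells and 44.1% in the 3 G1-gated cells with the d2 control. The EpiSC bins stand at 44.4% in EpiSC and at most 10.9% in any group of G1-gated cells.

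Single regions show the counts behind these means. The region chr3:98640001-98880000 was copied in 13 of 17 d2 cells and in 0 of 9 EpiSC, 0 of 10 d7 and 0 of 8 d6 cells. It was copied in all 3 G1-gated cells with the d2 control and in 0 of the 20 with other controls, where a count of 0 allows a share of up to 15%. Among d2 S-phase cells at 10 to 20%, it was copied in 7 of 8 with that control and 0 of 3 with another. Among d2 mid-S cells the counts were 12 of 12 and 4 of 23. The d2 region chr6:66800001-67040000 was copied in all 14 d2 cells with a call, in all 3 G1-gated cells with the d2 control and in 0 of the 18 others with a call. In mid-S it was copied in all d2 cells of either control. The highest d2 region lay on chromosome 18 and was copied in 15 of 16 d2 cells and all 3 G1-gated cells with the d2 control.

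The highest region of d6 was chr4:155120001-155360000, copied in 9 of 10 d7 and 6 of 7 d6 cells, against 1 of 16 d2 cells. All 9 d7 cells with the d6 control had it. It was copied in 9 of 10 G1-gated cells with the d6 control and in 0 of the 13 others. For the highest region of d7, chr19:5360001-5600000, the counts were 9 of 10 d7 cells, 5 of 10 G1-gated cells with the d6 control, 1 of 10 with other controls and 0 of 3 with the d2 control.

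Pairs of cells were compared by the share of the smaller replicated set that the other cell also held. The median overlap was 32.1% in 264 pairs of the same state and 11.5% in 1332 pairs of different states. For scale, the larger cell of a pair had itself copied a median of 6.33% and 6.51% of its called bins. In the 72 pairs of different states that shared a control, which are d6 with d7, the median was 42.3%, against 10.5% in the 1260 pairs of different states with different controls. The 9 pairs of the same state with different controls had a median of 1.95%. All 9 hold the same d7 cell, which also had the lowest AUC of the 57. A cell with a G1-gated cell of the score window overlapped by a median of 34.5% when both used the same control (243 pairs) and 5.99% when they did not (1068 pairs).

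Followers overlapped across states and controls. Their median was 44.03% in 47 pairs of the same state and 33.3% in 163 pairs of different states, all with different controls. EpiSC with CBMS1 followers, which differ in strain, culture and control, overlapped by 31.4% in 108 pairs. The larger cell of those pairs had a median score of 8.04%. Because followers were chosen for early placement, part of this overlap is set by the choice.

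EpiSC and CBMS1 followers were also set side by side bin by bin, which does not remove this limit. The CBMS1 followers were chosen by AUC, so their recurrent bins lie among bins early in mid-S in part by that choice. The 2084 recurrent bins of EpiSC were replicated in 35.4% of the 12 CBMS1 followers, against 7.15% for all bins. Of these, 1112 bins were recurrent in both sets, 3.74% of the 29752 bins with values in both. That is 53.4% of the EpiSC bins, where 2438 of 29756 bins (8.19%) were recurrent in the CBMS1 followers. It is 45.6% of those 2438 CBMS1 bins. The shared bins cover 89.0 Mb on all 19 autosomes and form 158 regions with a median of 320 kb and a longest of 1680 kb. Of the 1112, 1063 were replicated in at least 95% of mid-S cells, as were 22.2% of all bins. They made up 16.1% of the 6606 bins of that class.

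These shared bins were read in cells outside the choice. The 44 S-phase cells at 10 to 20% had them replicated in 74.5%, the 23 G1-gated cells of the window in 13.6% and the 19 S-phase cells below 1% in 0.898%. All bins stood at 14.9%, 3.50% and 0.359% in the same sets. Among single EpiSC, the cell just under the window, with a score of 0.793%, had copied 10.3% of them. The 9 EpiSC ranged from 13.2% to 82.9%, and 4 EpiSC at scores of 12.4 to 16.8% from 69.04% to 92.1%. The list was built on the 9, so their values are a description.

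The regions of this shared list with the highest mean were picked out after the values were seen. They were chr9:107440001-108000000 (7 of 9 EpiSC, 9 of 12 CBMS1 followers) and chr15:101920001-102560000 (7 of 9 and 11 of 12). The others were chr11:77280001-78000000 (6 of 9 and 9 of 12), chr9:72240001-72800000 (8 of 9 and 9 of 12), chr4:140480001-141040000 (6 of 9 and 10 of 12) and chr11:79920001-80320000 (6 of 9 and 10 of 12). G1-gated cells of the window had copied them in 2 to 4 of 23 cells, and S-phase cells at 10 to 20% in 36 to 38 of 44.

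By the rule for naming, the highest region of EpiSC was chr7:20960001-21200000, which rests on 5 cells with a call and was copied in 3. The next, picked out after the values were seen, was chr2:25760001-26560000, a stretch of 800 kb copied in 7 of 9 EpiSC (77.8%, 40.0 to 97.2%). It was copied in 4 of 12 CBMS1 followers, 1 of 23 G1-gated cells and all 4 EpiSC at 10 to 20%. The region chr3:89840001-90240000 was copied in 5 of 9 EpiSC, 8 of 12 CBMS1 followers and 2 of 23 G1-gated cells.

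States were compared where at least 8 cells were at hand. EpiSC minus d2, the share of cells was higher by 0.3 or more in 1361 bins (4.58%) and lower by that much in 807 (2.71%). Both lists were chosen for this difference. In the 1361 bins the mean was 47.6% of EpiSC and 4.40% of d2 cells, yet mid-S cells of both states had them replicated in 99.0% and 97.7%. Of the 1361, 1315 were early in both states, so a difference of 0.3 in mid-S was hardly possible for them. In the 807 bins the mean was 2.87% of EpiSC and 49.1% of d2 cells and 70.4% and 76.7% in mid-S. Of the 802 of these with a mid-S value in both states, 437 were early in both and 76 were lower by 0.3 or more in mid-S EpiSC too. For scale, bins early at d2 made up 38.7% of the called bins of a d2 cell with 29707 calls. Bins early in both states can be no more common than that among them. The share of all bins that differed by 0.3 in mid-S is not given, so the 76 are a count alone. The highest runs outside chromosome 18 were chr2:26080001-26560000 (8 of 9 EpiSC against 2 of 16 d2 cells) and chr11:77280001-77920000 (6 of 9 against 0 of 16). The lowest were the d2 regions on chromosomes 6 and 3 described above. All 9 EpiSC but only 2 of the 17 d2 cells followed the mid-S profile, and its part in these differences was not tested. State, strain and control cannot be told apart here either.

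The share was higher by 0.3 or more in d7 than in d2 in 1053 bins (3.57%) and lower in 912 (3.1%). Of the 1053, 742 were early in both states in mid-S, and 544 of the 912 were. The bins that differed by 0.3 or more the same way in mid-S numbered 74 and 108. The same bound of 38.7% applies to bins early in both d7 and d2. The shares of all bins that differed in mid-S are not given here either, so 74 and 108 are counts alone. The highest runs for d7 over d2 were chr1:133840001-134080000 (9 of 10 against 0 of 16), chr9:64880001-65120000 (9 of 10 against 0 of 16) and the chromosome 19 region named above. The lowest outside chromosome 18 were chr3:98640001-98880000 and chr11:84000001-84240000 (0 of 10 against 13 of 17). In each of these 5 regions, at least 50% of the G1-gated cells with the control of the copying state had copied it too. Those counts were 6 of 10, 8 of 10 and 5 of 10 with the d6 control, and 3 of 3 and 2 of 3 with the d2 control. State and control cannot be told apart in these differences.

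Chromosomes differed in how many of their bins were recurrent among the 57 cells. Chromosome 11 had 91 of 1486 (6.12%), chromosome 4 had 68 of 1864 (3.65%) and chromosome 19 had 23 of 726 (3.17%). Chromosomes 14 (0.203%), 16 (0.337%) and 13 (0.411%) had the fewest. In EpiSC alone, chromosome 11 had 18.5% of its bins recurrent and chromosome 13 had 0.686%. As a mean over all bins, chromosome 11 was replicated in 8.18% of the 57 cells and chromosome 13 in 3.22%. In mid-S cells those means were 71.7% and 60.1%. Across the 19 chromosomes the recurrent percentage of the 57 cells went with coding genes per megabase at Pearson's r = 0.61, that of EpiSC at 0.75 and that of followers at 0.82. The mean percent replicated in mid-S cells went with it at 0.79, so the relation is not particular to the start of S phase. The 19 points share the same libraries and differ in size, the genes were counted in build GRCm38.p6 over mm9 lengths, and no p-value is given.

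Recurrent bins were more common than all bins near the chromosome ends farthest from the centromere, though most of them lay elsewhere. The last 10 Mb of the chromosomes held 15.5% of the 516 recurrent bins, 11.8% of the recurrent bins of EpiSC and 13.1% of those of followers. They held 7.89% of all bins and 11.0% of the bins that were early in mid-S. The EpiSC value was thus close to that of early bins in general.

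The replicated bins lay in short runs. The cells were chosen for few replicated bins, so runs shorter than at higher scores are set in part by that choice. A run is a stretch of adjacent bins all called replicated, so its length comes in steps of 80 kb. The 57 cells held 28642 runs with a median of 160 kb, of which 46.6% were single bins. Runs of 400 kb or more held 44.6% of the replicated bins, and single bins held 17.3%. In the 23 G1-gated cells the median was 80 kb, with 56.9% single bins. In the 44 S-phase cells at 10 to 20% it was 240 kb, with 74.7% of bins in runs of 400 kb or more, and in mid-S cells it was 1040 kb and 97.8%.

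Run length differed between states. The states also differed in the mean percent replicated over bins, with 5.10% in EpiSC, 5.05% at d2, 4.28% at d7 and 3.22% at d6. The part of the score in the run lengths was not tested. In EpiSC, 3391 runs had a median of 240 kb and a longest of 3120 kb. Runs of 400 kb or more held 59.6% of the replicated EpiSC bins, and single bins held 4.64%. At d4 these were 63.1% and 4.42%, at d3 54.3% and 6.83%, and at d5 52.3% and 7.25%. The single d0 cell, with an AUC of 0.562, had 68.2% and 7.28%. In the 13003 runs of d2 the median was 80 kb, 60.3% were single bins, and runs of 400 kb or more held 23.3% of the bins. At d7 and d6 the median was 80 kb as well, with 43.9% and 52.4% of bins in runs of 400 kb or more. By that share d6, d5 and d3 lay close together, although 1 of 8, 2 of 3 and 3 of 4 of their cells followed the profile. The share sums bins over cells, so cells with many replicated bins weigh most. The 1 d6 follower held 2780 replicated bins, with 69.9% of them in such runs, and the other d6 cells ranged from 0 to 69.1%. The sparse d3 cell stood at 97.0%. Among the 21 followers the median run of a cell was 160 to 320 kb, and the longest run of any was 3120 kb.

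**Figure D5:**
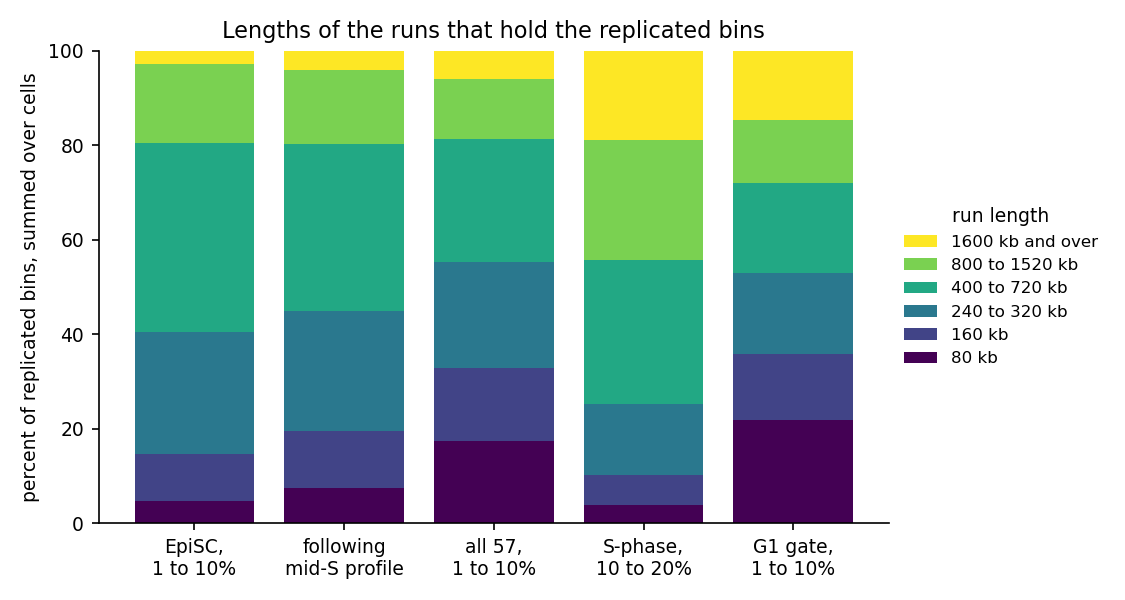
Stacked bars give the percent of replicated bins, summed over the cells of a set, that lie in runs of each length class. Single bins hold 4.64% in EpiSC, 7.35% in followers and 17.3% over all 57 cells, and 3.91% in S-phase cells at 10 to 20% and 21.8% in G1-gated cells. Runs of 1600 kb and over hold 2.72%, 4.03%, 5.95%, 18.9% and 14.6%.

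Runs of 5 Mb or more occurred in 3 of the 57 cells, none a follower. The sparse d3 cell held a run of 19840 kb, chr3:139680001-159520000. A d7 cell of the 25perS gate, with an AUC of 0.489, held one of 17680 kb at chr3:141840001-159520000. A d6 cell with an AUC of 0.522 held one of 5920 kb on chromosome 12. G1-gated cells of the window held such runs as well: 17760 kb at chr3:137120001-154880000 in a d7 cell, 11920 kb on chromosome 12 in a d4 cell, and runs of 11440 kb and 6320 kb in 2 others. Such runs thus occurred under both kinds of gate.

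The score steps can be set side by side within the 57. The median run of a cell was 80 kb at 1 to 4%, 160 kb at 4 to 7% and 240 kb at 7 to 10%, medians over cells. The share of a cell's replicated bins in runs of 400 kb or more was 31.6%, 53.9% and 57.4%, with ranges that overlap almost fully (0 to 96.0%, 4.91 to 69.1% and 16.1 to 97.0%). The states are spread unevenly over the steps, and their part in these values was not tested.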

How the data were processed

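Per the submitters' processing notes, reads were trimmed with cutadapt, aligned to mm9 with BWA 0.7.10-r789 and handled with Picard. Per the file headers, 1 call per 80 kb bin (replicated, not replicated or no data) was deposited, held here as a score because it is a code. The replication score is deposited as a fraction of replicated autosomal bins. Recomputed from the calls, it differed by at most 4.99578e-10. How reads were turned into calls is not given in the sources used here beyond the merged G1 control named for each cell. The deposited columns for autosomes were used and those for chromosome X were not.

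Cells were grouped by their labels, and 7 G1-gated cells whose labels conflict entered no comparison. Scripts in Python 3.11.15 (pandas 2.3.3, numpy 2.4.6) did the rest and were tested on simulated data. Recurrence, runs, AUC and pair overlap were computed as stated beside their first use. The cells, the lists and the states compared were chosen with earlier results of these data known. The regions named are, by rule, the 12 with the highest mean share, the 3 highest at 1 to 4%, the highest of each state with at least 8 cells, and the 3 widest differences each way between states. Regions of chromosome 18 are given without coordinates or left out. The comparisons of d7 and EpiSC with d0 that had been planned could not be run, because d0 had 1 cell, and d2 took its place after the data were seen. No sequence is shown, because no mm9 genome was at hand.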

Additional observations from a re-analysis of the deposited data

Results flagged for a closer look

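The highest or lowest cell of a state stood apart from the others by Dixon's criterion 17 times, over 30 sets of values, each set being 1 measure in 1 state of 4 to 10 cells. Chance gives such a flag in about 1 set in 20.

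Among the 10 d7 cells, a 25perS cell had the lowest AUC (0.489), the lowest share of early bins (34.4%), the longest run (17680 kb) and the lowest share of the recurrent bins (3.83%). It is the one d7 cell with its own control. A 35perS d7 cell had few called bins (26508). Among the 4 d3 cells, the sparse cell stood apart in its 4355 called bins, its early share of 30.5% and its longest run of 19840 kb.

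Among the 5 d4 cells, 1 cell had an AUC of 0.513, an early share of 42.7%, a longest run of 4160 kb and 7.66% of the recurrent bins. It scored 2.49%, below the other 4. Among the 8 d6 cells, a 25perS cell had an early share of 40.2%, and a 35perS cell, the one follower, held 69.7% of the recurrent bins. Among the 9 EpiSC, 1 cell had the lowest AUC (0.815), the lowest early share (92.6%) and the fewest called bins (27950).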

How the results depend on the processing

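Of 135 recomputed values over 12 results, 117 stayed within the SD over cells or, for counts, within 1.5 times, and 18 did not. Leaving out the earlier series could not move any of the 12 results, because no chosen cell came from it. Leaving out d0 could not move overlap within a state, because its 1 cell forms no such pair. The 117 include these values. The SD was wide for some results. Overlap between states, with an SD of 13.3%, counted as within it at 3.49% as a Jaccard index. Staying within the SD is therefore a weak check. The cause of the 18 moves was not tested unless the setting itself shows it. The recurrent bins, 516 as reported, numbered 276 at scores of 1 to 8%, 934 with 25perS cells only, 845 without d2, 1950 with followers only, 1791 at a 20% threshold and 115 at 40%. The recurrent share of a cell's replicated bins (median 13.9%) was 21.8% with 25perS cells only, 26.03% without d2, 53.4% with followers only, 36.9% at the 20% threshold and 3.39% at 40%. Overlap within a state (32.1%) was 12.5% as a Jaccard index, and overlap between states (11.5%) was 33.3% with followers only. For EpiSC minus d2, the higher bins (1361) numbered 776 at scores of 1 to 8% and 675 at a difference of 0.4, and the lower bins (807) numbered 471 at 0.4. For d7 minus d2, the lower bins (912) numbered 1413 with 25perS cells only and 506 at 0.4. The settings with followers only and without the 2 sparse cells, and all those for state differences, were chosen after seeing the data. Comparisons with d0 were not run. No paired analysis was possible because each state is 1 sample and cell numbers pair nothing across states.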
